A study of Homo sapiens with 8 samples.

Results

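The G1/S and DNA replication machinery was taken as 50 genes, found by matching their symbols to the rows of the deposited count table, without use of any measured value. All 50 were present among the 14668 genes of the table, and all 50 passed the filter on low counts in both assays, so no gene of the set was dropped. Counts came from T3M4, an established human pancreatic cancer cell line, in cells with a control guide RNA (sgControl) and in cells with a guide RNA against METTL13 (sgMETTL13). METTL13 is the methyltransferase that modifies the translation elongation factor eEF1A. All cells, in both arms, were deprived of serum for 18 h and then refed with 10% FBS for 2 h. Poly(A) RNA-seq, and ribosome profiling, which counts mRNA fragments shielded by ribosomes (footprints), each had 2 libraries per arm, 8 in all. Whether the sgMETTL13 cells were a pool or 1 clone, and whether replicates came from separate cultures, is not in the labels, and the p-values therefore cover the spread among these libraries, which may be technical.

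Before S phase the origin recognition complex, CDC6 and CDT1 load the MCM2-7 ring onto DNA, which licenses an origin for a single round of copying. CDC45 and the GINS complex turn the ring into the active helicase, polymerase alpha with primase begins each strand, and polymerases delta and epsilon extend it on the PCNA clamp that replication factor C (RFC) loads. Many of these genes are transcribed by E2F factors late in G1, after cyclin-dependent kinases inactivate the retinoblastoma protein, and serum withdrawal followed by serum is a common way to bring cultured cells out of rest into G1.

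The E2F recognition sequence in promoters is one feature that many of the genes shared and that matching by symbol did not use. Promoter windows from 250 bases before to 50 bases after the RefSeq start (GRCh38.p14) were found for 43 of the 50 (not for MCM4, MCM5, GINS4, POLD3, RPA2, RPA3 and CCNE2). The words searched were TTTCCCGC, TTTCGCGC, TTTGCCGC and TTTGGCGC on either strand, where words on opposite strands can overlap, as in TTTCGCGCGAAA. At least 1 of them was in 21 of the 43 windows (48.8%), against 5.19% of the 11909 windows of genes in the count table, and in 18 of the 21 it lay within 60 bases of the start. The 6-base core (the last 6 letters of each word) was in 39 of 43 windows (90.7%) and also in 67.6% of the windows of genes in the table. The sequences shown are those of the called genes described later that held a word, with MCM6 and E2F1 for comparison. Each is on the gene's strand 5′ to 3′ with the word in capitals. In PCNA, POLE2 and UHRF1 the word was on the opposite strand, so the capitals are its reverse complement.
PCNA: gcgtcagggGCGGGAAAaggcgtgcg
POLE2: gcggcggtgGCGCCAAAtcgcaaata
UHRF1: cgagttttcGCGGGAAAaaaatcaga
LIG1: ttcacccctTTTCCCGCcctcctccc
MCM2: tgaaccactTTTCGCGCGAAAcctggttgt
MCM6: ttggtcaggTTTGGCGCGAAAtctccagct
E2F1: caaaaaggaTTTGGCGCgtaaaagtg
In GRCh38.p14 these were chr20:5126665-5126690 (minus strand, word beginning 59 bases before the start), chr14:49688203-49688228 (minus, 5 before), chr19:4909478-4909503 (plus, 14 before), chr19:48170442-48170467 (minus, 114 before), chr3:127598404-127598433 (plus, 2 after), chr2:135876513-135876542 (minus, 90 before) and chr20:33686389-33686414 (minus, 20 before). In MCM2 and MCM6 words on opposite strands overlapped in 1 run of capitals, and the MCM6 window held the same run again, 152 bases before the start. The E2F1 window held another word, on the opposite strand, beginning 33 bases before the start. Its end lies in the lower-case bases shown. The UHRF1 window belongs to a start that lies 6421 bases inside the outer RefSeq bound of the locus. Starts also lay inside for PRIM2 (93265 bases), ORC1 (5080), POLD2 (777), CDC45 (454) and RRM2 (171). No word was found in the windows of these other genes, and sequence farther out was not searched.

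RNA libraries held 20860953 to 48353722 counts and footprint libraries 6063885 to 9837253. The limit that a count of 0 allows is 3 counts, at most 0.144 per 1000000 counts in RNA and 0.495 in footprints. These limits use library totals without scaling and cover counting error only. Levels elsewhere are in CPM (counts per 1000000 counts, scaled by edgeR's TMM factors). The targeted gene METTL13 had sgControl footprints of 65.2 and 57.8 CPM and sgMETTL13 footprints of 20.1 and 26.2 CPM (log2 fold change -1.41, SE 0.164, adjusted p = 6.38e-07), and its mRNA had a log2 fold change of -1.42 (SE 0.406), which did not pass (adjusted p = 1.00). The 8 epithelial markers, among them KRT8, KRT18 and EPCAM, summed to 1664 to 1765 CPM of footprints per library. Of 7 fibroblast markers 6 were in the table and summed to 21.8 to 25.4 CPM, mostly COL1A1, with COL1A2 at 0 in every footprint library, and the 4 of 7 leukocyte markers in the table summed to at most 1.87 CPM. In the RNA libraries the sums were 2924 to 4266 CPM for the epithelial, 24.0 to 33.3 CPM for the fibroblast and 20.7 to 49.4 CPM for the leukocyte markers, the last mostly CD68. What part RNA of such cells has in the results was not tested.

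In sgMETTL13 cells 8 of the 50 replication genes had footprint levels that differed from sgControl. PCNA, POLE2, FEN1, ORC5 and RPA1 rose by 1.29-fold to 1.51-fold, and UHRF1, LIG1 and MCM2 fell to 0.62 to 0.77 of the control level. The other 42 were not called, where a call is an adjusted p below 0.05 (edgeR, quasi-likelihood F test, all genes tested). The 5 called higher were 10% of the set, against 8.94% of all 10714 genes tested, and the 3 called lower were 6%, against 12.0% of all genes. In both directions together 16% of the set was called, against 21.0% of all genes, so the number of calls is no result about the set. In bulk lysates a different share of cells in S phase and a different level per cell cannot be told apart. In mRNA 0 of 50 were called, as were 0% of all 12468 genes in either direction. No gene of the set had an unadjusted p under 0.05 in mRNA, where 100 of all 12468 genes did. DESeq2 also called 0 of 50, and 0 of all 12468 genes in either direction. In simulated counts the mRNA fit found 1% of the genes changed by 2-fold, so a change of that size could be missed.

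**Figure D1:**
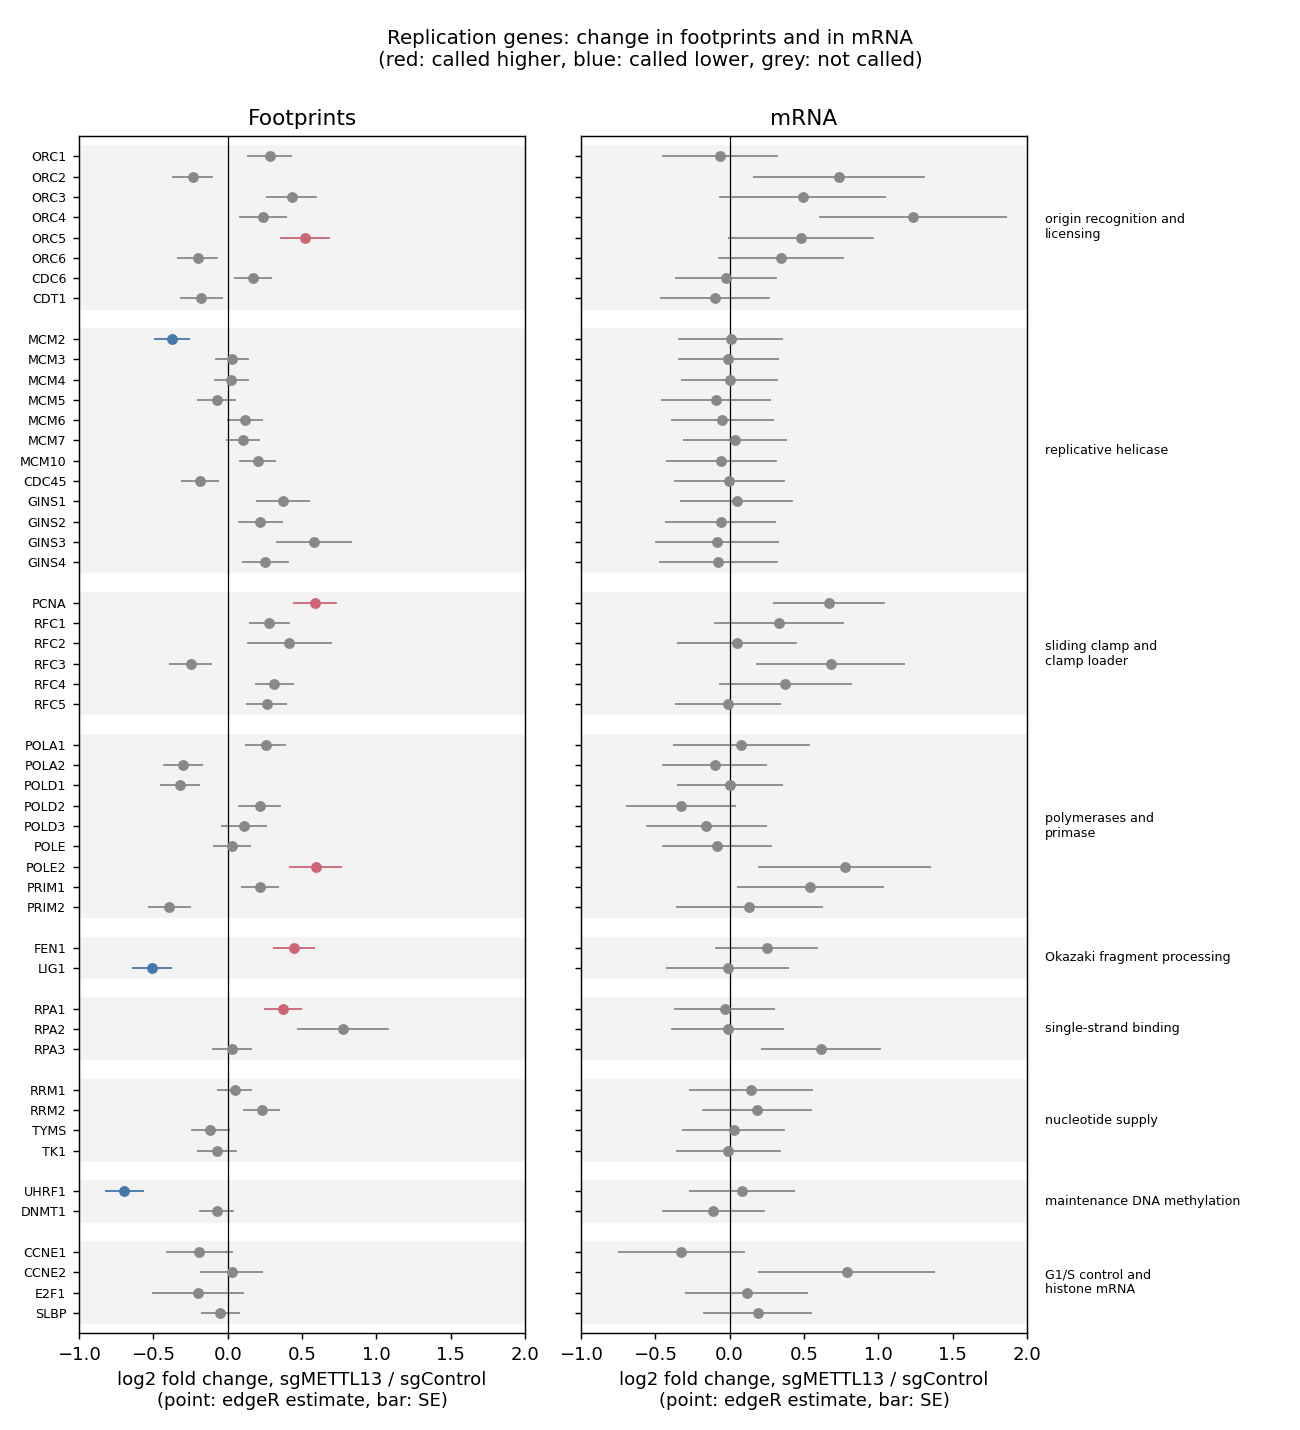
Log2 fold change of sgMETTL13 over sgControl for the 50 genes, ordered by role, in footprints (left) and mRNA (right); points are edgeR estimates from 2 libraries per arm and bars are standard errors. The 5 red and 3 blue points are the footprint calls, and in mRNA all points are grey, not called.

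Changes in footprints across the set were small. The median log2 fold change was 0.10, beside 0.01 over all genes, with 32 genes above 0 and 18 below (64% above, against 51.0% of all genes). Within 1.5-fold of control lay 46 of the 50, and 82.4% of all genes. In 23 of the 50 (46%) both sgMETTL13 libraries lay above both sgControl libraries, against 32.0% of all genes, and in 10 (20%) both lay below, again against 32.0%. The arms overlapped in the remaining 17. The position of sgControl replicate 2 moved with the calls. In 8 of 8 called genes it was farther from the sgMETTL13 mean than sgControl replicate 1, as in 91.3% of all genes called. So it was in 30 of the 42 not called (71.4%), beside 68.5% of all genes not called. Without sgControl replicate 2, or without sgMETTL13 replicate 2, UHRF1 was the 1 gene of the 8 still called. Of all genes 2.86% were then called higher and 4.64% lower in the first case, and 2.33% and 4.11% in the second. A model of all 8 libraries together, with a biological coefficient of variation of 0.261 against 0.0992 in footprints alone, called none of them. Of all 10446 genes tested in that model it also called 0, higher or lower.

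**Figure D2:**
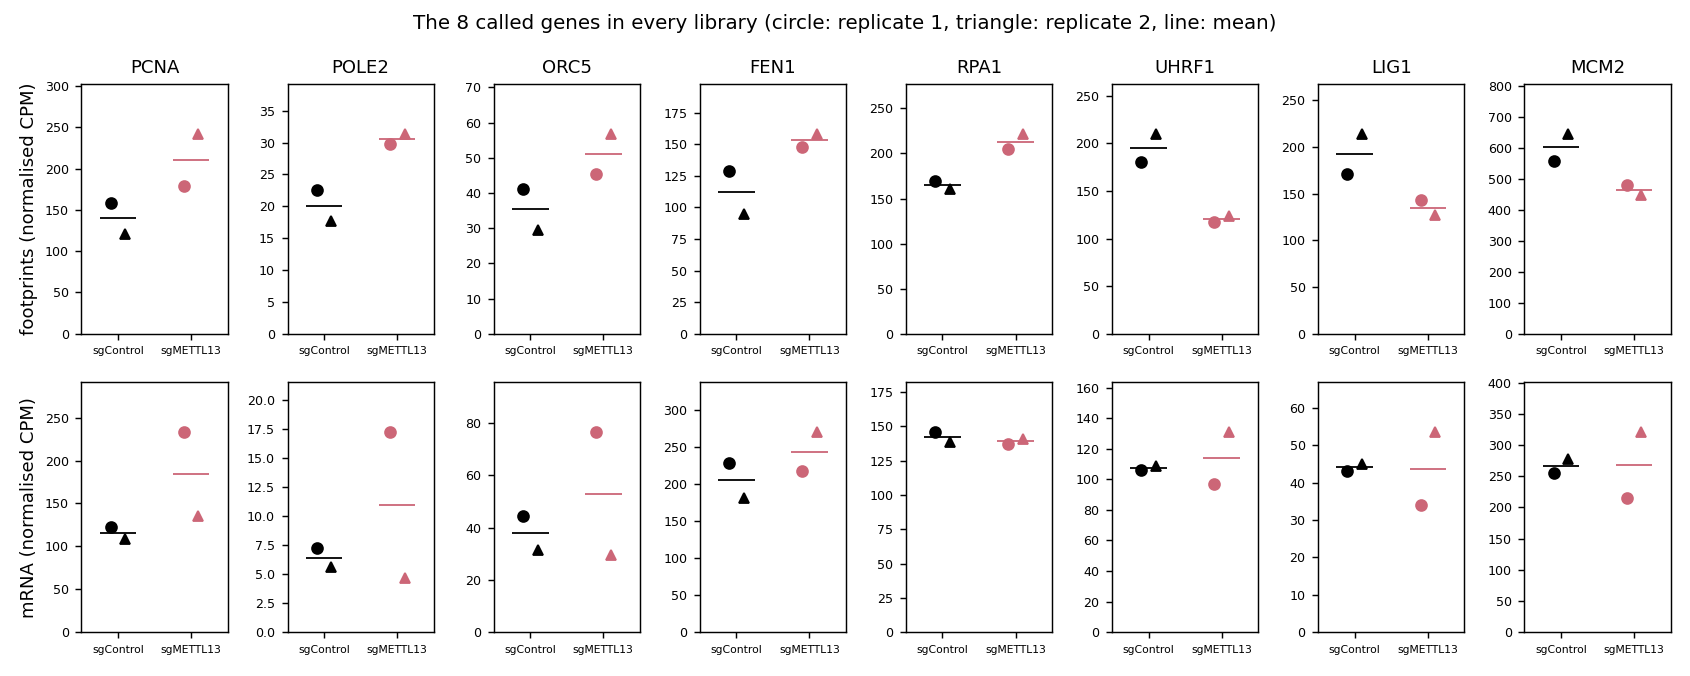
Normalised footprint and mRNA CPM of the 8 called genes in each of the 8 libraries, with circles for replicate 1, triangles for replicate 2 and lines for the means. In every footprint panel both sgMETTL13 points lie on the same side of both sgControl points, whereas in mRNA they do so for PCNA alone.

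Of the 8 origin recognition and licensing genes ORC5 alone was called, and the median log2 fold change of the 8 in footprints was 0.20. ORC5 (chr7:104126341-104208013), a subunit of the origin recognition complex, had sgControl values of 41.3 and 29.4 CPM and sgMETTL13 values of 45.3 and 56.9 CPM (log2 fold change 0.52, SE 0.169, adjusted p = 0.0277). Both sgMETTL13 libraries were above both controls, but sgControl replicate 1 lay much nearer to them than replicate 2. The estimate was 0.30 with an adjusted p of 0.336 without sgControl replicate 2 and 0.35 with an adjusted p of 0.362 without sgMETTL13 replicate 2. ORC3, another subunit and just outside the threshold, had 24.3 and 22.4 CPM for sgControl against 29.1 and 34.1 CPM for sgMETTL13 (log2 fold change 0.43, SE 0.170, adjusted p = 0.0685). The lowest estimate of the group was that of ORC2, with sgControl values of 123 and 134 CPM and sgMETTL13 values of 119 and 99.6 CPM (log2 fold change -0.24, SE 0.136, adjusted p = 0.225), where the arms did not overlap but the test was not passed. CDC6, the ATPase that helps load the ring, had sgControl values of 173 and 154 CPM and sgMETTL13 values of 187 and 181 CPM (log2 fold change 0.17, SE 0.129, adjusted p = 0.365). CDT1, its partner in loading, had 87.1 and 106 CPM for sgControl against 77.9 and 92.2 CPM for sgMETTL13 with overlapping arms (log2 fold change -0.18, SE 0.143, adjusted p = 0.403). Neither licensing factor passed the test, and ORC1, ORC4 and ORC6 had log2 fold changes of 0.28, 0.24 and -0.20.

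Among the 12 helicase genes MCM2 alone was called, and it fell, while the other 5 ring subunits did not pass, with log2 fold changes from -0.07 to 0.12. MCM2 (chr3:127598411-127622436), whose tail also binds histones, had sgControl values of 557 and 646 CPM and sgMETTL13 values of 479 and 449 CPM (log2 fold change -0.37, SE 0.122, adjusted p = 0.0279). The same 4 libraries gave MCM3 sgControl values of 675 and 712 CPM and sgMETTL13 values of 710.3 and 705 CPM (log2 fold change 0.03, SE 0.117), and MCM4 sgControl values of 652 and 689 CPM and sgMETTL13 values of 655 and 708 CPM (log2 fold change 0.02, SE 0.118). For both, the arms overlapped. MCM5 had sgControl values of 128 and 130.3 CPM and sgMETTL13 values of 117 and 128 CPM (log2 fold change -0.07, SE 0.132). MCM6 stood at 364 and 368 CPM for sgControl against 396 and 399 CPM for sgMETTL13 (log2 fold change 0.12, SE 0.120), and MCM7 at 1577 and 1435 CPM for sgControl against 1612 and 1618 CPM for sgMETTL13 (log2 fold change 0.10, SE 0.116). In MCM6 and MCM7 the sgMETTL13 libraries were both higher, by less than the test could separate. These 6 subunits form 1 ring, and the share of MCM2 in the footprint counts of MCM2 to MCM7 does not depend on library scaling. It was 14.1% and 16.2% in sgControl and 12.1% and 11.2% in sgMETTL13, each with a 95% Wilson interval reaching at most 0.479 points from the value (counting error only). In mRNA the share of MCM2 was 11.8% and 12.5% in sgControl and 11.4% and 12.7% in sgMETTL13, with overlapping arms. With 2 libraries per arm no test of a share was made. The MCM2 estimate was -0.27 with an adjusted p of 0.238 without sgControl replicate 2, -0.43 with an adjusted p of 0.104 without sgMETTL13 replicate 1 and -0.33 with an adjusted p of 0.312 without sgMETTL13 replicate 2, and the call was also lost with a replicate block (adjusted p = 0.0825).

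CDC45 and the GINS subunits, which complete the active helicase, were not called. GINS3 had the highest estimate, with 5.44 and 5.98 CPM for sgControl against 7.52 and 9.55 CPM for sgMETTL13 (log2 fold change 0.58, SE 0.256, adjusted p = 0.102), at low counts. GINS1, GINS2 and GINS4 had log2 fold changes of 0.37, 0.22 and 0.25, all above 0, and CDC45 was at -0.19. MCM10, a factor that helps activate the helicase, was at 0.20. mRNA of the 12 helicase genes had log2 fold changes between -0.09 and 0.05.

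**Figure D3:**
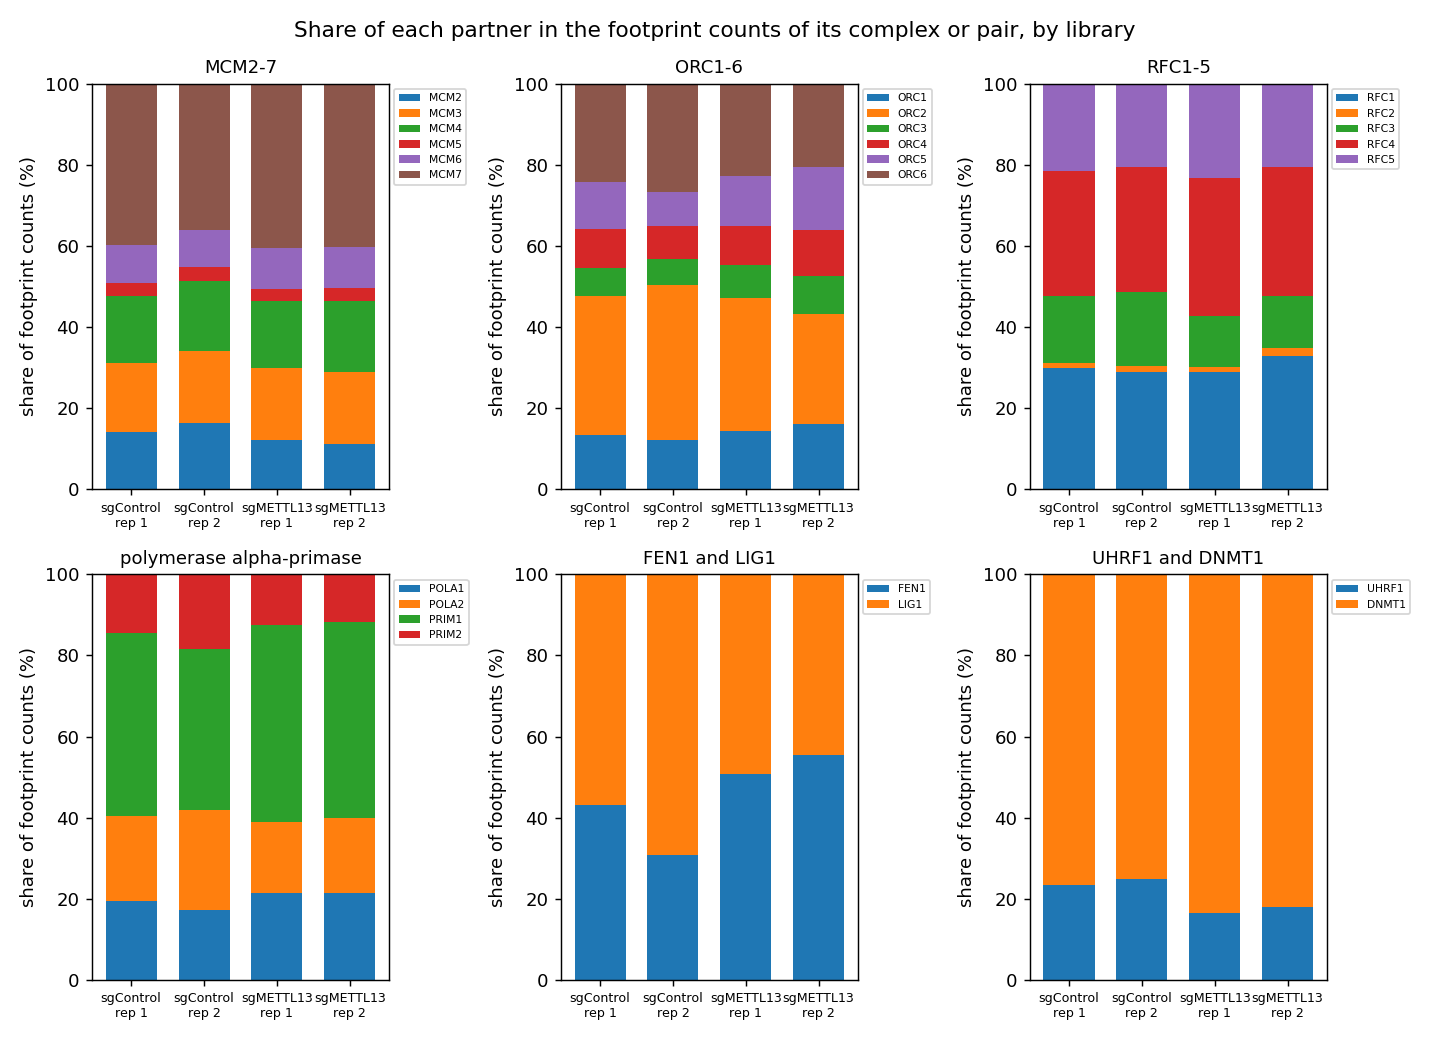
Share of each subunit in the summed counts of its complex or pair, in percent (stacked bars from 0 to 100), for the 4 footprint libraries. MCM2, LIG1 and UHRF1 hold smaller shares in both sgMETTL13 libraries than in both sgControl libraries. So do MCM5, ORC2, ORC6, RFC3, POLA2 and PRIM2, which were not called.

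The sliding clamp rose and its loader was not called. PCNA (chr20:5114953-5126622), the ring that tethers polymerases to DNA, had sgControl values of 159 and 121 CPM and sgMETTL13 values of 179 and 242 CPM (log2 fold change 0.59, SE 0.149, adjusted p = 0.00528). Its 2 sgMETTL13 libraries were above both controls in footprints and also in mRNA, at 123 and 109 CPM for sgControl against 233 and 135 CPM for sgMETTL13, where the test was not passed (log2 fold change 0.67, SE 0.377, unadjusted p = 0.103). The footprint estimate was 0.40 with an adjusted p of 0.0780 without sgControl replicate 2 and 0.36 with an adjusted p of 0.268 without sgMETTL13 replicate 2. RFC1, RFC2, RFC4 and RFC5 had positive log2 fold changes of 0.28, 0.42, 0.31 and 0.26. RFC3 had the lowest value of the role, with sgControl values of 67.7 and 68.7 CPM and sgMETTL13 values of 55.4 and 59.5 CPM (log2 fold change -0.25, SE 0.143, adjusted p = 0.221), and its 2 sgMETTL13 libraries were both below the controls. RefSeq names 4 pseudogenes after PCNA and 1 each after RFC3, RFC5 and FEN1, and how reads with several matches were counted is not stated in the sources used here.

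Of the 9 polymerase and primase genes POLE2 was called. POLE2 (chr14:49643555-49688214), a non-catalytic subunit of polymerase epsilon, rose from 22.6 and 17.6 CPM for sgControl to 29.8 and 31.4 CPM for sgMETTL13 (log2 fold change 0.59, SE 0.176, adjusted p = 0.0167). Catalytic POLE was not called, at 0.03 (SE 0.127). Of the footprint counts of the pair POLE2 made up 11.1% and 7.98% in sgControl and 13.2% and 13.8% in sgMETTL13. Wilson bounds lay within 1.61 points, for counting error only, and the sgControl libraries differed by more. The POLE2 estimate was 0.43 with an adjusted p of 0.194 without sgControl replicate 2, 0.63 with an adjusted p of 0.0502 without sgMETTL13 replicate 1 and 0.56 with an adjusted p of 0.134 without sgMETTL13 replicate 2. At the other end PRIM2, the large primase subunit, had sgControl values of 89.9 and 110.5 CPM and sgMETTL13 values of 81.8 and 70.5 CPM and lay just outside the threshold (log2 fold change -0.39, SE 0.144, adjusted p = 0.0508). Its partner PRIM1, the catalytic subunit, was at 0.22. Catalytic POLA1 was at 0.25 and its partner POLA2 at -0.30. POLD1, the catalytic subunit of polymerase delta, was at -0.32 (adjusted p = 0.0820), POLD2 at 0.21 and POLD3 at 0.11. Estimates of partners thus lay on both sides of 0 in the polymerase alpha, delta and primase pairs, and the differences between partners were not tested.

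The 2 genes of Okazaki fragment joining moved in opposite directions. FEN1 (chr11:61792911-61797238), the flap endonuclease that trims the lagging strand, had sgControl values of 129 and 95.1 CPM and sgMETTL13 values of 148 and 158 CPM (log2 fold change 0.44, SE 0.142, adjusted p = 0.0257). LIG1 (chr19:48115445-48170344), the ligase that seals the trimmed ends, had sgControl values of 171 and 214 CPM and sgMETTL13 values of 143 and 127 CPM (log2 fold change -0.51, SE 0.137, adjusted p = 0.00840). The sgMETTL13 libraries did not overlap the controls in either gene. FEN1 accordingly made up 43% and 30.7% in sgControl and 50.8% and 55.5% in sgMETTL13 of the footprint counts of the pair. Wilson bounds lay within 2.17 points, for counting error only, and the sgControl libraries differed by more. The mRNA share of FEN1 was 84.2% and 80.1% in sgControl and 86.5% and 83.5% in sgMETTL13, which overlapped. The FEN1 estimate was 0.24 with an adjusted p of 0.383 without sgControl replicate 2, 0.49 with an adjusted p of 0.0667 without sgMETTL13 replicate 1 and 0.40 with an adjusted p of 0.216 without sgMETTL13 replicate 2. That of LIG1 was -0.34 with an adjusted p of 0.149 without sgControl replicate 2 and -0.42 with an adjusted p of 0.185 without sgMETTL13 replicate 2.

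RPA, the trimer that coats single-stranded DNA, had 1 subunit called. RPA1 (chr17:1830005-1900082), the large DNA-binding subunit, rose from 169 and 160.2 CPM for sgControl to 204 and 222 CPM for sgMETTL13 (log2 fold change 0.37, SE 0.127, adjusted p = 0.0358), with mRNA at sgControl values of 146 and 139 CPM and sgMETTL13 values of 137 and 141 CPM. Its footprint arms were apart and its mRNA arms overlapped. The RPA1 estimate was 0.33 with an adjusted p of 0.172 without sgControl replicate 2, 0.42 with an adjusted p of 0.109 without sgMETTL13 replicate 1 and 0.31 with an adjusted p of 0.346 without sgMETTL13 replicate 2, and the call was lost with a replicate block (adjusted p = 0.101). RPA2 had only 40 and 13 footprint counts in sgControl and 63 and 57 in sgMETTL13 (log2 fold change 0.78, SE 0.307, adjusted p = 0.0692), and 3 RefSeq pseudogenes bear its name. RPA3 had sgControl values of 183 and 185 CPM and sgMETTL13 values of 209 and 166 CPM with overlapping arms (log2 fold change 0.03, SE 0.133).

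None of the 4 genes of deoxynucleotide supply was called in footprints, with a median log2 fold change of -0.01. RRM2, the regulated subunit of ribonucleotide reductase, had sgControl values of 301 and 271 CPM and sgMETTL13 values of 329 and 340.4 CPM (log2 fold change 0.23, SE 0.123, adjusted p = 0.188), with both sgMETTL13 libraries above both controls. RRM1, its large subunit, was at 0.05 (SE 0.118). TYMS, which makes thymidylate, had 171 and 180.1 CPM for sgControl against 176 and 147 CPM for sgMETTL13 (log2 fold change -0.12, SE 0.132). TK1, the thymidine salvage kinase, had 124 and 116 CPM for sgControl against 117 and 111 CPM for sgMETTL13 (log2 fold change -0.07, SE 0.132). In both TYMS and TK1 the arms overlapped.

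UHRF1 showed the largest drop of the 50 and the smallest p. UHRF1 (chr19:4903080-4962154), which recognises hemimethylated DNA behind the fork and brings in DNMT1, had sgControl values of 181 and 210.1 CPM and sgMETTL13 values of 117 and 124 CPM (log2 fold change -0.69, SE 0.132, adjusted p = 0.000465). The arms were well apart, and UHRF1 was the 1 gene of the 8 that stayed called without any single footprint library. DNMT1, the maintenance methyltransferase, had 594 and 633 CPM for sgControl against 595 and 570.0 CPM for sgMETTL13 (log2 fold change -0.07, SE 0.118). Of the footprint counts of the pair UHRF1 took 23.3% and 24.9% in sgControl and 16.4% and 17.9% in sgMETTL13. Wilson bounds lay within 1.23 points, for counting error only. In mRNA UHRF1 took 31.3% and 28.7% in sgControl and 32.7% and 32.8% in sgMETTL13. The share was lower in both sgMETTL13 footprint libraries and slightly higher in both sgMETTL13 RNA libraries. UHRF1 mRNA itself had sgControl values of 106 and 109 CPM and sgMETTL13 values of 97 and 131 CPM, overlapping, with a log2 fold change of 0.08 (SE 0.356). The UHRF1 locus overlaps the coding gene ARRDC5 in RefSeq, and 11 of the 50 genes overlap another coding gene, for which the strand setting of the counting is not stated.

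The 4 regulators of G1/S entry and histone mRNA were not called in footprints. CCNE1, a cyclin that activates CDK2 before S phase, had sgControl values of 12.7 and 10.4 CPM and sgMETTL13 values of 8.94 and 11.5 CPM (log2 fold change -0.19, SE 0.224). Its paralog CCNE2 had 14.3 and 10.9 CPM for sgControl against 12.1 and 13.9 CPM for sgMETTL13 (log2 fold change 0.03, SE 0.212). The arms overlapped for both cyclins at low counts. E2F1, a transcription factor for much of the set, had sgControl values of 3.87 and 3.76 CPM and sgMETTL13 values of 2.95 and 3.73 CPM (log2 fold change -0.20, SE 0.311). Its sgMETTL13 libraries were both below the controls, replicate 2 barely so, and the test was not passed. E2F1 counts were low, at 32 and 22 in sgControl and 29 and 34 in sgMETTL13. SLBP, which binds the stem-loop of replication-dependent histone mRNAs, had 186 and 171 CPM for sgControl against 186 and 159 CPM for sgMETTL13 (log2 fold change -0.05, SE 0.131), again with overlap.

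mRNA of the set varied most between the replicates of sgMETTL13. In sgMETTL13 RNA 12 of the 50 genes differed over 2-fold between the 2 replicates, all higher in replicate 1, against 0 of 50 in sgControl RNA, 1 of 50 in sgControl footprints (RPA2) and 0 of 50 in sgMETTL13 footprints. ORC4, a subunit of the origin recognition complex, was the extreme, with 13.1 and 10.0 CPM for sgControl against 45.2 and 9.27 CPM for sgMETTL13, a 4.88-fold difference between the sgMETTL13 replicates. CCNE2 had 4.28 and 3.76 CPM for sgControl against 11.2 and 2.72 CPM for sgMETTL13, and POLE2 had 7.24 and 5.59 CPM for sgControl against 17.3 and 4.69 CPM for sgMETTL13. In each of these, sgMETTL13 replicate 1 was above both controls and replicate 2 was below them. The standard deviation of the log2 replicate difference over the 50 genes was 0.857 in sgMETTL13 RNA and 0.264 in sgControl RNA, and over all genes 0.910 and 0.427. In sgMETTL13 RNA replicate 1 was the higher in 26 of the 50 genes. The largest difference the other way was that of E2F1, with sgControl values of 49.9 and 51.4 CPM and sgMETTL13 values of 41.1 and 68.6 CPM.

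The mRNA calls changed when sgMETTL13 RNA replicate 2 was left out. Without sgMETTL13 RNA replicate 2, 11 genes of the set were called higher (CCNE2, ORC2, ORC3, ORC4, ORC5, PCNA, POLE2, PRIM1, RFC1, RFC3 and RPA3) with log2 fold changes from 0.75 to 1.96. They were 22% of the set, against 18.7% of the 12614 genes tested (2359 genes). Without replicate 1 the median mRNA log2 fold change of the 50 genes was 0.05. With all 4 RNA libraries the arms were apart in 3 genes that were higher (PCNA, ORC6 and RPA3; 5.11% of all genes) and 2 that were lower (GINS3 and CCNE1; 6.84% of all genes). RPA3 mRNA, the smallest RPA subunit's transcript, had sgControl values of 54.4 and 35.6 CPM and sgMETTL13 values of 75.7 and 62.3 CPM (log2 fold change 0.62, SE 0.404). CCNE1 mRNA had sgControl values of 17.7 and 17.6 CPM and sgMETTL13 values of 13.4 and 14.7 CPM (log2 fold change -0.33, SE 0.428). Neither passed, and the median mRNA log2 fold change of the 50 genes was 0.02, beside 0.04 over all genes.

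**Figure D4:**
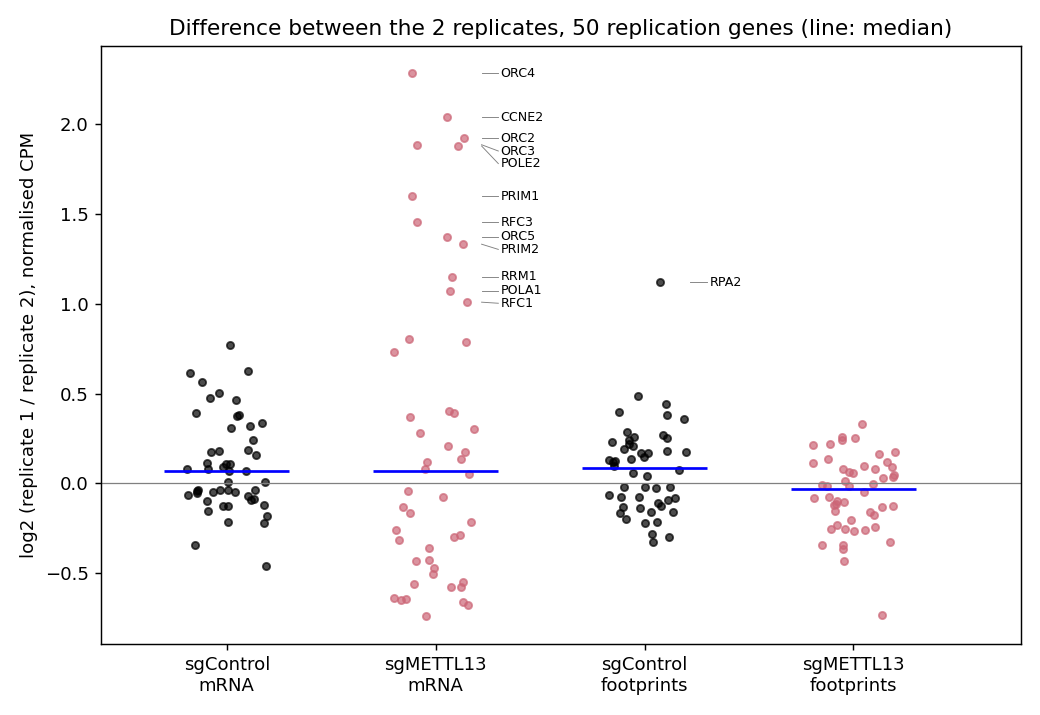
Log2 ratio of normalised CPM in replicate 1 over replicate 2 for each of the 50 genes (points) in the 4 groups, with the group median as a line and genes over 2-fold named. The named genes are 12 in sgMETTL13 mRNA and RPA2 in sgControl footprints.

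Translational efficiency, the footprint change relative to the mRNA change in 1 model of all 8 libraries, was not called for any of the 50 genes, as for 0% of all 10446 genes tested. At an unadjusted p under 0.05 there were 0 of the 50 and 347 of all genes. DESeq2 called 0 of the 50, against 1 higher and 4 lower among all genes. UHRF1 had the smallest p of the set (log2 -0.77, SE 0.346, unadjusted p = 0.0528). The other 7 genes called in footprints had efficiency changes between -0.49 (SE 0.400) for LIG1 and 0.42 (SE 0.300) for RPA1. PCNA was at -0.05 (SE 0.430) and MCM2 at -0.37 (SE 0.357). For PCNA, FEN1, ORC5 and POLE2 the standard error exceeded the efficiency change. In simulated counts the efficiency fit found 0% of the genes changed by 2-fold. Every gene called in footprints changed by less than 2-fold there, so an efficiency change of that size could be missed for any of them. Without sgMETTL13 RNA replicate 1, UHRF1 was called lower (-1.06) and ORC3 higher (1.09), which is 2% of the set each, against 3.14% and 1.63% of all genes. Without replicate 2, CCNE2, ORC2, ORC4, PRIM1, PRIM2 and RFC3 were called lower (12%, as were 12.0% of all genes) and POLD2 higher (0.96; 2%, against 126 of all 10464 genes). Which genes passed thus changed with the RNA replicate kept.

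In sgControl cells, footprints per mRNA ranged widely within the set. The log2 ratio of footprint CPM to mRNA CPM in sgControl was taken relative to the median of 10446 genes. It had a median of 0.84 over the 50 genes, and 40 of 50 lay above the median gene, 37 of them in both replicates. Each replicate ratio took the footprint and RNA libraries of the same number, though the labels do not say what a number shares. Footprints come from the coding part of a transcript and RNA-seq reads from all of it, so the ratio also moves with the length of the untranslated parts, which was not tested. ORC2 had the highest value (3.08, percentile 96.9), and PRIM1, RRM1, LIG1, RPA3 and MCM10 were also in the top 10% of genes. At the low end RPA2 (-3.79, percentile 3.23), E2F1 (-3.51, percentile 4.15), RFC2 (-2.83, percentile 7.51) and POLD2 (-2.66, percentile 8.55) were in the lowest 10%. E2F1 had 3.87 and 3.76 CPM of footprints beside 49.9 and 51.4 CPM of mRNA in sgControl. RPA2 had only 40 and 13 footprint counts in sgControl. RefSeq names pseudogenes after RPA2, RPA3, POLD2 and FEN1, but none after E2F1 or RFC2. How reads with several matches were counted is not stated, and what part this has in the ratios was not tested. In RPA the range ran from RPA2, at these low counts, through RPA1 (0.43) to RPA3 (2.25). In Okazaki processing FEN1 was at -0.66 and LIG1 at 2.34. These are descriptions of 2 libraries per assay with no test.

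**Figure D5:**
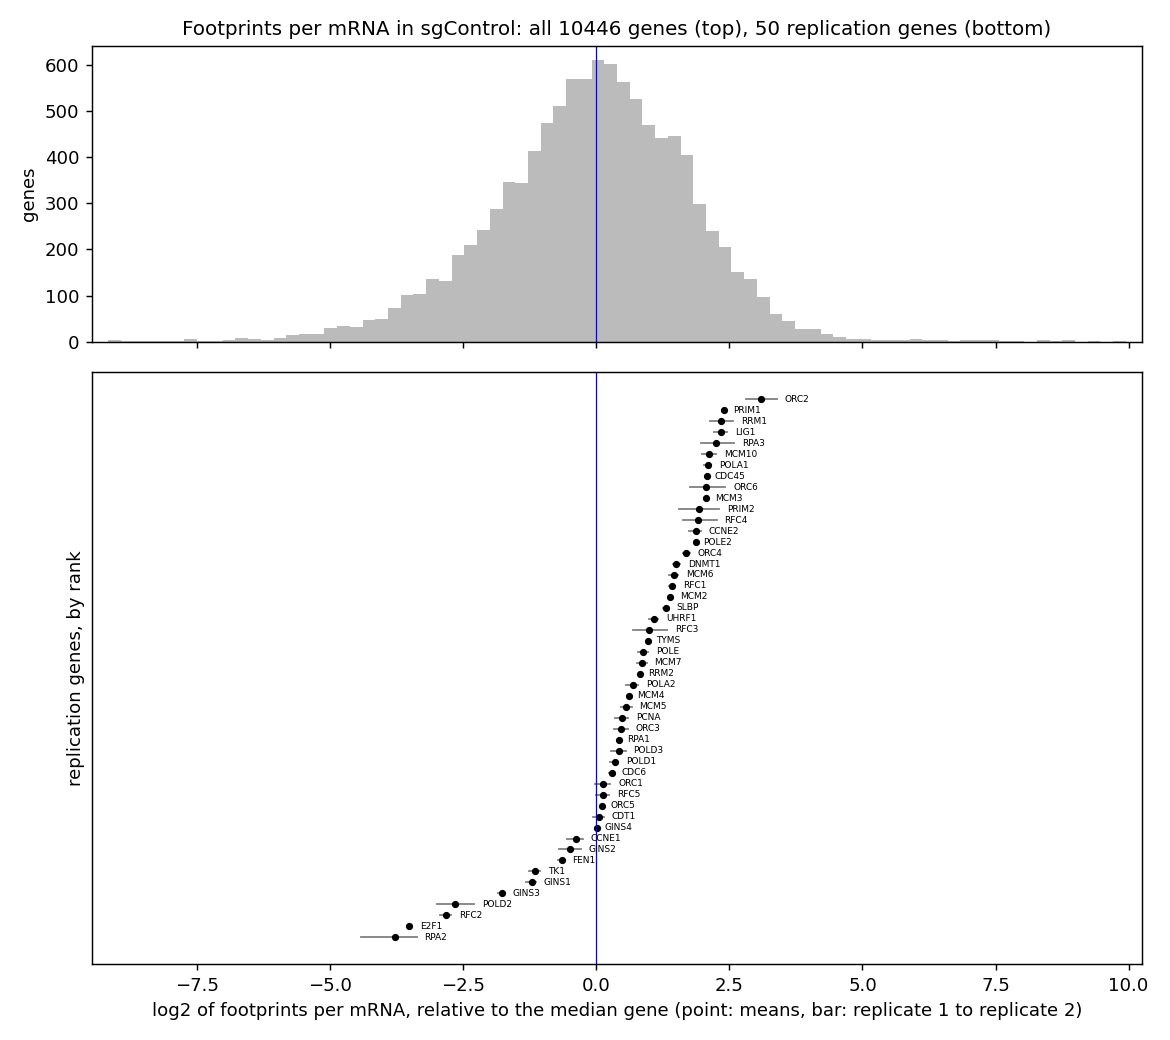
Log2 footprints per mRNA in sgControl, relative to the median gene, for all 10446 genes (top, histogram) and for each of the 50 genes (bottom, points from the replicate means with bars from replicate 1 to replicate 2). Each replicate ratio divides a footprint library by the RNA library of the same number. Most of the 50 lie above 0, with RPA2, E2F1, RFC2 and POLD2 at the low end.

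Footprint changes were set beside the promoter words as a description. Of the 21 genes with an E2F word in the window 2 were called higher (PCNA and POLE2) and 3 lower (UHRF1, LIG1 and MCM2), with a median log2 fold change of 0.03. Of the 22 without one in the window searched 3 were called higher (FEN1, ORC5 and RPA1) and 0 lower, with a median of 0.22. Shares among all genes were 8.94% and 12.0%, and no test was made of the difference.

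Further genes of the same pathways, 67 in 5 lists, had calls in both directions too. Of the 64 tested in footprints 8 were called higher and 11 lower, against 8.94% and 12.0% of all genes, with a median log2 fold change of 0.08, and none was called in mRNA or efficiency. In licensing and origin firing 1 of 13 was higher, MCMBP, which binds MCM proteins off chromatin (0.48, adjusted p = 0.0224). In that list 2 were lower, the helicase RECQL4 (-0.74, adjusted p = 0.00278) and LRWD1, which binds the origin recognition complex (-0.53, adjusted p = 0.0116). Among 18 fork and polymerase accessory genes 2 were higher and 3 lower. The latter were POLD4, the small subunit of polymerase delta (-1.13, adjusted p = 0.000944), CHTF18 of an alternative clamp loader (-0.59, adjusted p = 0.00781), and TIMELESS of the fork protection complex (-0.38, adjusted p = 0.0272). In nucleotide supply 2 of 9 were higher, DUT, the dUTPase (1.14, adjusted p = 0.000565), and SAMHD1, which degrades deoxynucleotides (0.60, adjusted p = 0.00339). DCK, the deoxycytidine kinase, was lower (-0.56, adjusted p = 0.0112). In replication-coupled chromatin 2 of 9 were higher, among them the histone-binding RBBP4 (0.90, adjusted p = 0.00114). The 2 that were lower were CDCA7 (-0.67, adjusted p = 0.000747) and CHAF1A, a subunit of the chromatin assembly factor (-0.54, adjusted p = 0.00371). In G1/S control 1 of 15 was higher, the cyclin CCNA2 (0.51, adjusted p = 0.0258). The 3 lower ones included the kinase CDK2 (-0.65, adjusted p = 0.00143) and E2F2 (-1.32, adjusted p = 0.0104). E2F2 footprints were low, at 3.75 and 3.08 CPM for sgControl against 1.22 and 1.54 CPM for sgMETTL13. The bracketed values are log2 fold changes in footprints with edgeR's adjusted p, and these lists were not rerun under the alternatives.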

How the data were processed

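RNA-seq and ribosome profiling each covered 4 libraries, 2 per arm, grouped by their labels. Raw counts by gene symbol were deposited by the authors. The submitters' processing notes list Bowtie 1.2.2, UMI-tools, HISAT2 2.0.4, cutadapt 1.18 and featureCounts, and the build hg38, without roles. Annotation, strand setting and the treatment of multiple matches and of molecular identifiers are not given in the sources used here. Counts were fitted over all genes with edgeR 4.0.16 (R 4.3.3; quasi-likelihood F test, TMM factors, default low-count filter) in each assay apart, and efficiency as the interaction in 1 model of 8 libraries. P-values were adjusted by Benjamini-Hochberg over all genes tested. CPM are TMM-normalised, and standard errors were derived as |log2 fold change| divided by √F. In counts simulated for the real genes with 200 changed, the footprint fit (10714 genes) found 76% of the genes changed by 2-fold and 99% of those changed by 4-fold. The mRNA fit (12468 genes) found 1% and 43%, and the efficiency fit (10446 genes) 0% and 21%. Values in every library are given for genes past the footprint threshold, the largest rise and fall per role and a set list of key genes; companion genes are the 3 smallest p per list among those called. Genes and lists were chosen with earlier results of these data known. Subunits were not compared per codon, since coding lengths were not used here. Alternatives used DESeq2 1.42.0, other scalings and filters, a replicate block and each library left out in turn.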

Additional observations from a re-analysis of the deposited data

How the results depend on the processing

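With 1 library left out at a time, the footprint calls among the 50 genes ran from 0 to 6 higher and 1 to 5 lower, and among all genes from 254 to 1404 higher and 447 to 1614 lower. In mRNA they ran from 0 to 11 higher and 0 lower among the 50, and among all genes from 0 to 2359 higher and 0 to 150 lower. For efficiency they ran from 0 to 1 higher and 0 to 6 lower among the 50, and from 0 to 171 higher and 0 to 1258 lower among all genes. An arm left with 1 library was assumed to vary like the other. The log2 change in efficiency of ORC3 was -0.03, and it went to 1.09 without sgMETTL13 RNA replicate 1 and to -0.68 without replicate 2. One model of all 8 libraries called 0 higher and 0 lower in footprints, both among the 50 and among all genes. DESeq2 called 606 genes higher in footprints against 958, and for efficiency 1 higher and 4 lower. Other scalings (RLE factors, library totals) and a filter of 30 counts kept all 8 footprint calls, DESeq2 lost ORC5, and no filter added RPA2.

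With the replicate block, footprint calls among the 50 went from 5 higher and 3 lower to 4 and 2, with MCM2 and RPA1 lost. Among all genes it called 716 higher and 1013 lower. The labels do not say what a number shares, so the main fits did not pair samples by number. The replicate block, and the footprints per mRNA given by replicate, did use the numbers. Deviations of same-numbered libraries correlated at 0.371 between the RNA arms and at -0.182 between the footprint arms, and across assays between -0.00650 and 0.274. With the pairing crossed, chosen after seeing the data, 9 of the 50 were called higher and 6 lower (18% and 12%), against 1513 higher and 1707 lower of all genes (14.1% and 15.9%). Per-codon levels were not run. The lowest footprint counts, and with them the largest standard errors, were those of E2F1, RPA2, RFC2 and GINS3.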

Other observations

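CKS1B, a binding partner of cyclin-dependent kinases that was named after its values were seen, had 10623 and 6055 RNA counts in sgControl and 11483 and 8103 in sgMETTL13, but 0 and 0 footprint counts in sgControl and 1 and 1 in sgMETTL13. RefSeq names 7 pseudogenes after it.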
